A study of Homo sapiens with 9 samples.

Results

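BPTF recruited peaks near gene starts are the places close to protein-coding genes that the authors listed as gaining BPTF after a progestin was given to a breast cancer line. Of the 1848 recruited peaks, 281 (15.2%, Wilson 95% interval 13.6% to 16.9%) overlapped the 5 kb on either side of a gene start, and they lay near the starts of 325 genes. A start was the 5′ end of a gene in the table of 20318 protein-coding genes deposited with the H2A data. The members were chosen by the authors' call of a BPTF gain between 0 and 30 min and by their distance to a start, so both are given here as a description and carry no test. At the edge of the rule, the member at ADAP1 came within 4987 bp of the start and the first peak left out, at USP44, came within 5047 bp.

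The cells were T47D-MTVL, a luminal breast cancer line with an integrated reporter driven by the promoter of the mouse mammary tumour virus. They were held without serum and given R5020, a synthetic progestin, at 10 nM. ChIP-seq with antibodies against BPTF, HP1γ and LSD1 was labelled as unstimulated cells or as cells stimulated for 30 min, and ChIP-seq for histone H2A as unstimulated or as stimulated for 30 or 60 min, with 1 library for each antibody and time. No group had a replicate, so no p-value was computed, and all intervals cover only the sampling of peaks, not the spread between cultures. No RNA was measured here, so the line was not checked against marker genes. All coordinates are on GRCh37, also called hg19.

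BPTF is the largest subunit of NURF, an ATP-dependent remodelling complex that slides nucleosomes. It binds chromatin through a finger that reads methylated lysine 4 of histone H3, a mark of active gene starts, and a bromodomain that reads acetylated histones. The progesterone receptor binds an inverted repeat shared with the glucocorticoid receptor and recruits remodellers to hormone-responsive chromatin. The series asked whether hormonal remodelling draws on ATP made in the nucleus from ADP-ribose.

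The sequences under some members are shown side by side as examples of features that can occur together. The first examples lay on the gene start itself and held CpG, the dinucleotide that clusters in CpG islands. The stretches at OGDH (an enzyme of the citric acid cycle), NR6A1 (an orphan nuclear receptor) and SP2 (a factor of the SP1 family) are shown because their peaks covered the start. Each is 150 bases of the peak, plus strand, outside annotated untranslated regions, with CpG in capitals.
OGDH, chr7:44646021-44646170: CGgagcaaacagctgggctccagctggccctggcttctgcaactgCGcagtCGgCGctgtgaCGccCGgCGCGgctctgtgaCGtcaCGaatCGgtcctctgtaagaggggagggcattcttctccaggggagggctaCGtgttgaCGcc
NR6A1, chr9:127533591-127533740: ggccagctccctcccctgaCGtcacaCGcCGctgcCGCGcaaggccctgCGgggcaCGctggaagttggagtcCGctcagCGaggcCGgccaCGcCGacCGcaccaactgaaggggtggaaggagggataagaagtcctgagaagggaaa
SP2, chr17:45973366-45973515: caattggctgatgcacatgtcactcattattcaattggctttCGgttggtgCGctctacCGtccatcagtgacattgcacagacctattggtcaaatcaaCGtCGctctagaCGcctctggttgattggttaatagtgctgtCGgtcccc
In these 3 stretches the number of CpG was 13 at OGDH, 13 at NR6A1 and 7 at SP2. The GC content of the SP2 stretch was 48.7%.

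The second group of examples held the steroid receptor element, searched as GNACA and TGTNC separated by 3 bases, on both strands. Over their whole length 7 members held it, near ASAP2, CAPN7, PIM2, ST6GALNAC1, FAM188B, FGF1 and ARMC12. None of these peaks covered a start. The 4 nearest to a start are shown, with the element in capitals. ASAP2 is a regulator of ARF GTPases, CAPN7 a calpain protease, PIM2 a survival kinase and ST6GALNAC1 an enzyme that adds sialic acid to mucin sugars.
ASAP2, chr2:9346256-9346405: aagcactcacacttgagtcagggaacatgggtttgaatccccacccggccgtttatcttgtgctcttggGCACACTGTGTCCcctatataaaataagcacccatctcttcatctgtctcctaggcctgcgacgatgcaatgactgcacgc
CAPN7, chr3:15248571-15248720: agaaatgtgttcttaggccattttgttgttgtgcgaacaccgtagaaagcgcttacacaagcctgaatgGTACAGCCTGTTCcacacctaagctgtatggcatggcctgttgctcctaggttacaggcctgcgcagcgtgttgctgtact
PIM2, chrX:48777597-48777746: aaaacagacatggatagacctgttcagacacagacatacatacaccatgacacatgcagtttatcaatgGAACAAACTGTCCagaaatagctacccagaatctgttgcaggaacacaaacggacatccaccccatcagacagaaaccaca
ST6GALNAC1, chr17:74641714-74641863: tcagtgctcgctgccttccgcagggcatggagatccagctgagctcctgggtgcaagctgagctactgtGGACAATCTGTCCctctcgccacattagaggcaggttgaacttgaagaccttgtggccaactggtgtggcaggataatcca
The elements read GCACACTGTGTCC at ASAP2, GTACAGCCTGTTC at CAPN7, GAACAAACTGTCC at PIM2 and GGACAATCTGTCC at ST6GALNAC1. A match of these letters is a description and not a shown binding site.

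A last stretch comes from the member inside BCL2L1, which encodes the survival protein BCL-X and belongs to the progestin response list. It held the hexamer AGAACA, which forms a single arm of the element, outside its central 300 bases. The members at NFKBIA and TIPARP, on the same list, did not hold the hexamer over their whole length. Of all members, 28.8% did. The BCL2L1 stretch is shown with the hexamer in capitals.
BCL2L1, chr20:30308160-30308309: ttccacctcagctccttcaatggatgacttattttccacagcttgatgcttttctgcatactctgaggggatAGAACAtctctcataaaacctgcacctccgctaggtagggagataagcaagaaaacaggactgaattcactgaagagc
The peak (chromosome 20, 30307959 to 30308901) lay in an intron, 2275 bp downstream of the BCL2L1 start.

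Members piled up on the start. The centre lay within 500 bp of the nearest start in 80 of 281 members (28.5%, interval 23.5% to 34.0%) and within 1000 bp in 129 (45.9%, 40.2% to 51.7%). Among the 319 BPTF peaks that the authors listed as displaced by hormone and that met the same rule, these numbers were 23 (7.21%, 4.85% to 10.6%) and 55 (17.2%, 13.5% to 21.8%). The median distance was 1292 bp for members and 2419 bp for displaced peaks.

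**Figure D1:**
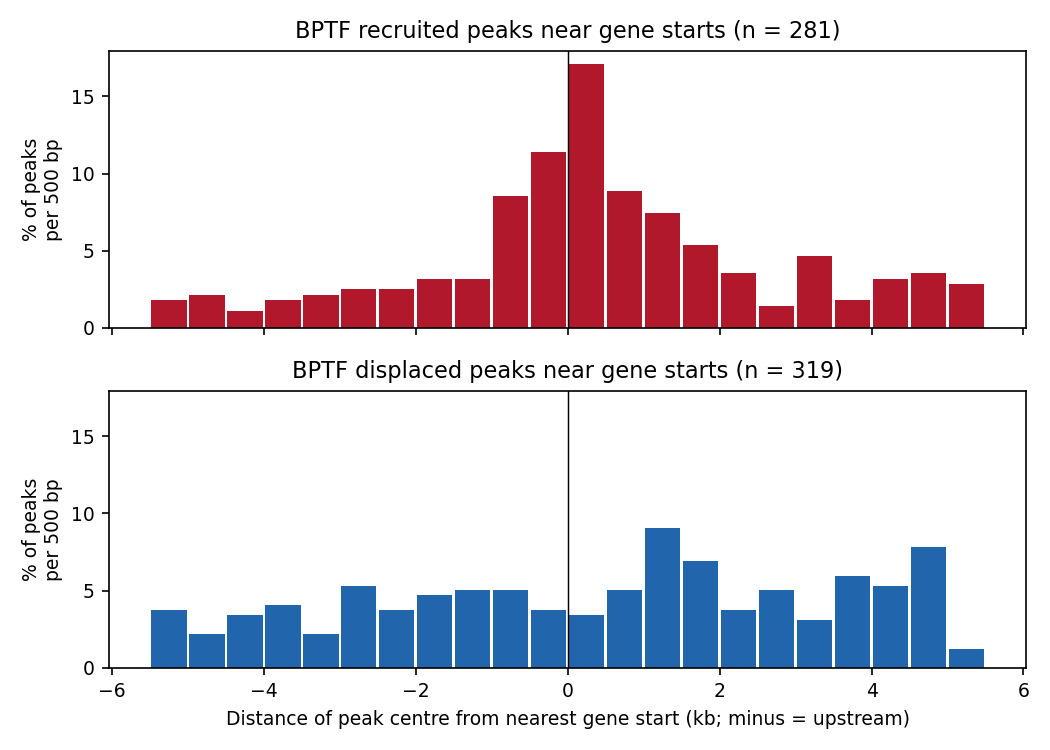
Share of peaks per 500 bp of distance between the peak centre and the nearest gene start, for the 281 recruited and the 319 displaced BPTF peaks within the rule. Recruited peaks reach 17.1% in the first 500 bp downstream and 11.4% in the first 500 bp upstream, while displaced peaks have 3.45% and 3.76% there.

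A start was covered by 54 members (19.2%, 15.0% to 24.2%), against 14 displaced peaks (4.39%, 2.63% to 7.23%). The centre lay upstream of the nearest start in 113 members and at or downstream of it in 168. Beyond 1000 bp, 57 lay upstream and 95 downstream. Near a start lay 5.75% (5.17% to 6.4%) of all 5546 displaced peaks, below the 15.2% of recruited peaks, and the lists share both BPTF libraries. Peak width did not set members apart, with a median of 594 bp (308 to 1549 bp), against 588 bp for recruited peaks elsewhere and 592 bp for displaced peaks near starts. By annotation the centre lay in an intron in 151 members (53.7%), between genes in 71 (25.3%), in an untranslated region in 29 (10.3%), in a coding exon in 21 (7.47%) and in another exon in 9 (3.2%). Of the centres upstream of the nearest start, 49 fell inside a transcript all the same, either of a neighbouring gene or of a longer isoform in the later annotation.

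Among the members closest to a start were those at FHDC1, a formin-like actin regulator, with its centre 23 bp downstream, and at OGDH, 27 bp upstream. PCDHGA5, a clustered protocadherin, followed at 32 bp upstream, and ANKRD16 at 35 bp downstream. SP2 had 48 bp downstream and NR6A1 50 bp upstream. HIST1H4A, a replication histone H4 gene, had 61 bp, SPAG4, a nuclear envelope protein of sperm, 65 bp upstream, and EIF5A2, a translation factor, 70 bp. Of the members named here, 8 were CpG-rich in the central 300 bases, and SPAG4 (64.0% GC, 10 CpG) was not. FHDC1 had 78.0% GC and 40 CpG, and OGDH 70.3% and 38.

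The widest members were at LRRC31 (1549 bp), BTG1 (1359 bp) and EIF5A2 (1282 bp). BTG1 is an antiproliferative gene, and its peak on chromosome 12 (92539555 to 92540913) covered the start. A member served 1 start in 239 cases, 2 in 37, 3 in 4 and 4 in 1. The genes with more than 1 member were ST6GALNAC1, with peaks 1683 bp upstream and 2094 bp downstream of its start, and HIST1H1A, HIST1H3A and HIST1H4A, which shared a pair of peaks.

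Genes in head-to-head pairs were as common among the 325 genes as among all. A start on the other strand lay within 1000 bp upstream for 31 (9.54%, 6.8% to 13.2%), against 8.61% of all genes. The closest pairs were CCT6B and ZNF830 (21 bp apart), MRPL36 and NDUFS6 (34 bp), FDXACB1 and C11orf1 (44 bp), MYO19 and PIGW (54 bp) and MCEE and MPHOSPH10 (77 bp). The members there were centred beside the shared promoter, 1255, 557, 566, 637 and 388 bp from the nearest start, and none covered it. CCT6B encodes a chaperonin subunit, and MRPL36 and NDUFS6 encode parts of the mitochondrial ribosome and of complex I.

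GC content split the members by their distance, in the direction seen around gene starts at large. In the central 300 bases, members with their centre within 1000 bp of a start had a median GC of 62.0% (quartiles 50.7% to 69.0%) and those farther away 49.2% (42.6% to 55.8%). Recruited peaks away from starts had 44.0% and displaced peaks near starts 38.3%. Displaced peaks within 1000 bp of a start still had only 45.3%. Windows centred on all gene starts had 63.0% and windows 2500 bp to either side of them 45.0%. A window counted as CpG-rich at a GC of at least 50% and an observed to expected CpG ratio of at least 0.6. This held for 72 of 129 members within 1000 bp (55.8%, 47.2% to 64.1%), 17 of 152 beyond (11.2%, 7.1% to 17.2%) and 40 of the 54 that covered a start (74.1%, 61.1% to 83.9%). Of displaced peaks within 1000 bp, 10 of 55 did (18.2%, 10.2% to 30.3%). Windows on all starts were CpG-rich in 57.9% and windows 2500 bp to either side in 3.93%.

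**Figure D2:**
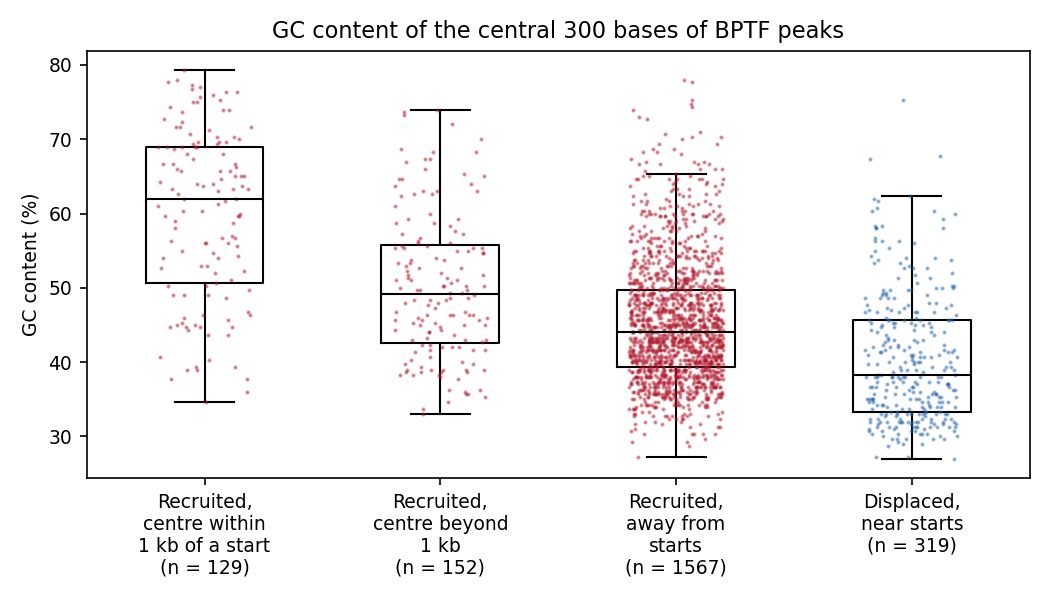
GC content of the central 300 bases of each BPTF peak, with a point per peak and boxes for the median and quartiles. The median falls from 62.0% for members within 1 kb of a start to 49.2% for members farther away, 44.0% for recruited peaks away from starts and 38.3% for displaced peaks near starts.

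The starts themselves also differed. Windows of 300 bases centred on the start were CpG-rich for 115 of 144 genes with a member centre within 1000 bp (79.9%, 72.6% to 85.6%) and for 126 of 181 with members only farther off (69.6%, 62.6% to 75.8%). Over all 20284 starts the share was 57.9%, and at genes with a displaced peak it was 58.8% (53.5% to 63.9%). GC content moved with the recruited and displaced classes throughout, and its part in the BPTF calls was not tested.

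The GC box GGGCGG, the element of SP1-family factors, was in 59 of 129 central windows within 1000 bp of a start (45.7%, 37.4% to 54.3%) and in 16 of 152 beyond (10.5%, 6.58% to 16.4%). It was in 4.08% of displaced windows near starts and in 16.4% (8.86% to 28.3%) of those within 1000 bp. Windows centred on all starts held it in 52.8%, and windows 2500 bp to either side of all starts in 8.34%. All motifs were searched on both strands.

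The hexamer AGAACA ran the other way. It was in 12 of 129 windows within 1000 bp (9.3%, 5.4% to 15.6%), in 31 of 152 beyond (20.4%, 14.8% to 27.5%) and in 470 of 1567 recruited windows away from starts (30.0%, 27.8% to 32.3%). Displaced windows near starts held it in 26.0%, and those within 1000 bp in 21.8%. Windows on all starts held it in 12.2% and windows 2500 bp to either side in 19.3%. The full element, which may contain that hexamer, was in 4 of 281 member windows (1.42%, 0.555% to 3.6%), and these were at ASAP2, CAPN7, PIM2 and ARMC12. It was in 1.85% of recruited windows away from starts and 0.404% of windows 2500 bp to either side of all starts. Hexamers poor in GC are rarer where GC is high, and the part of base composition in these shares was not tested.

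**Figure D3:**
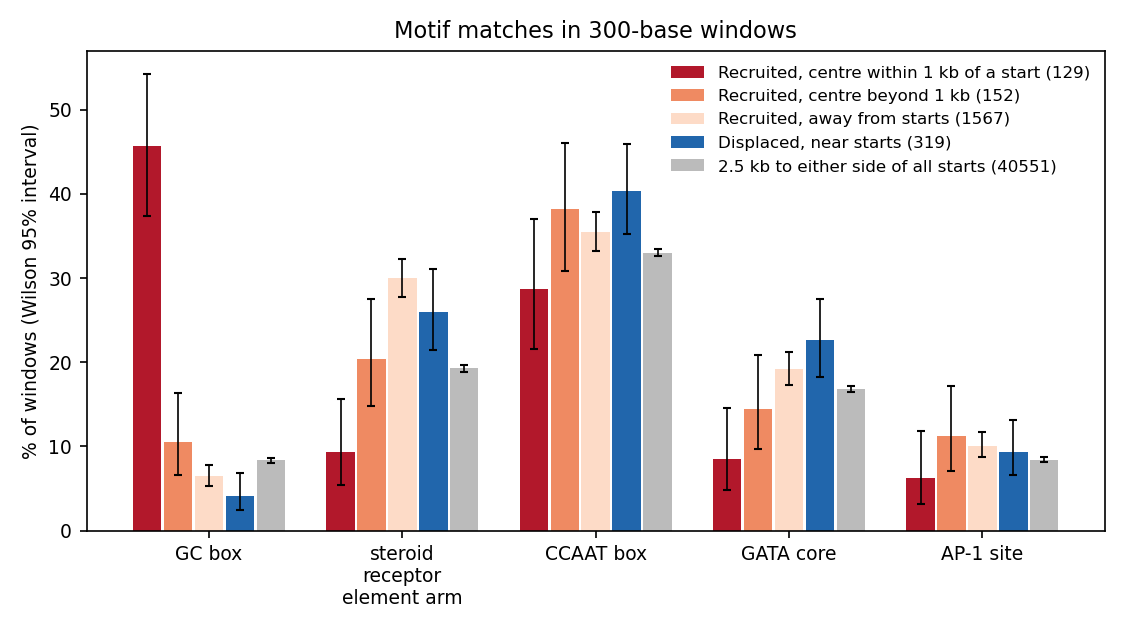
Share of 300-base windows with a match to each motif on either strand, with Wilson 95% intervals, for members by distance, other BPTF peaks and windows 2500 bp to either side of all gene starts. The GC box is in 45.7% of members within 1 kb and 10.5% of those beyond, whereas the steroid receptor element arm is in 9.3% and 20.4%.

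TATAAA, the core promoter element, was in 6.98% of member windows within 1000 bp (3.71% to 12.7%) and in 18.4% beyond (13.1% to 25.3%), and in 29.8% of displaced windows near starts. CCAAT, the element of NF-Y, was in 28.7% within 1000 bp (21.6% to 37.0%), 38.2% beyond (30.8% to 46.1%) and 40.4% of displaced windows. Displaced windows within 1000 bp of a start held TATAAA in 25.5% and CCAAT in 27.3%. Among members both motifs were thus less frequent near the start, unlike the GC box, and the intervals for CCAAT overlapped. Windows on all starts held TATAAA in 9.21% and windows 2500 bp to either side in 21.4%, so its fall is not particular to members. For CCAAT these shares were 32.0% and 33.0%. The ETS letters CCGGAAG were in 1 of 54 central windows of members that covered a start (1.85%, 0.328% to 9.77%), although windows centred on those same starts held them in 7 of 55 (12.7%), close to the 11.3% of all starts. The GATA core AGATAA was in 8.53% of member windows within 1000 bp and 14.5% beyond. It was in 22.6% of displaced windows near starts and 23.6% of those within 1000 bp. Windows on all starts held the GATA core in 7.51% and windows 2500 bp to either side in 16.8%. The AP-1 letters TGANTCA were in 8.9% of member windows and 9.4% of displaced windows near starts. The E box CACGTG was in 4.63% and 3.45%, and the forkhead core TGTTTAC in 3.2% and 4.08%. The estrogen response element, searched as GGTCA and TGACC separated by 3 bases, was in 0 of 281 member windows, where the interval reaches 1.35%.

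Hormone-related genes near members were few in number, with 1 to 3 in each list. Over all genes, 1.6% had a member, a share that the rule itself fixes. Of 45 genes of the progestin response, 3 (6.67%) had a member, above that share but on few genes. They were BCL2L1, NFKBIA (the inhibitor of NF-κB) and TIPARP. TIPARP is named for the poly-ADP-ribose polymerase family and is induced through the aryl hydrocarbon receptor. The NFKBIA peak (chromosome 14, 35872258 to 35872806) was centred in a coding exon 1390 bp downstream of the start. The TIPARP peak (chromosome 3, 156391619 to 156392342) was centred 2473 bp upstream. The list was drawn up with earlier results of these data known, so its count is no independent evidence.

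Among nuclear receptors 3 of 42 (7.14%) had a member, against 1.6% of all genes. They were PPARG, the receptor of fat cell formation, 1331 bp downstream of its start, HNF4G, 516 bp upstream, and NR6A1, whose peak covered the start. Of the estrogen response 1 of 20 (5.0%) had a member, SIAH2, a ubiquitin ligase, with the peak 2821 bp upstream. Of luminal markers 1 of 21 (4.76%) did, GRHL2, an epithelial transcription factor, with the peak 789 bp upstream. Of basal and mesenchymal markers 2 of 18 (11.1%) did, ACTA2, the smooth muscle actin, and COL1A1, a fibrillar collagen. The ACTA2 peak lay 406 bp upstream and also fell within the flank of FAS, the death receptor gene. Of immune markers 1 of 17 (5.88%) did, CD3E of the T cell receptor, with the peak 4106 bp downstream. GSE1 was the 1 of 20 partners of LSD1, CoREST and HP1 (5.0%). BCL2L1 was the 1 of 21 genes of the BCL2 family and apoptosis (4.76%).

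Several lists had no member, which says little for lists of 18 to 32 genes at the 1.6% share of all genes. These were the NURF, BAF and ISWI remodellers (31 genes), the enzymes of poly-ADP-ribose and NAD (27), the nuclear receptor coregulators (18), the kinases that signal to chromatin (30), the immediate-early genes (32), the genes of G1/S and DNA replication (32), the olfactory receptors (381) and the potassium channels (94). Neither PGR nor the other steroid receptor genes had a member, and TIPARP was not on the list of poly-ADP-ribose and NAD enzymes.

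Replication histones and HOX genes reached their counts through few peaks. Replication histones had 7 of 57 (12.3%, against 1.6% of all genes), but these 7 genes shared 4 peaks. They were HIST1H1A, HIST1H3A and HIST1H4A on chromosome 6, HIST3H2A and HIST3H2BB on chromosome 1, and HIST2H4A and HIST2H2AA3, whose near-identical copies make their reads uncertain and which were listed at 0 in every H2A library. The peak of the last pair was nearest to H3C14, a histone gene that the older symbols of the list miss. HOX genes had 4 of 39 (10.3%) through 3 peaks, HOXC13, HOXC4, and HOXB5 with HOXB3, and the peak at HOXB5 covered its start. Zinc finger genes had 3 of 506 (0.593%, including ZNF385A and ZNF830) and solute carriers 4 of 373 (1.07%, including SLC25A10 and SLC37A1). Oxidative phosphorylation had 2 of 99 (2.02%, NDUFS6 and NDUFS7), collagens 1 of 43 (2.33%) and ribosomal proteins 1 of 87 (1.15%, RPS18).

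By chromosome, members were most frequent on chromosome 8, with 20 for 701 starts (28.5 per 1000), followed by chromosome 5 (24.7), chromosome 17 (23.2), chromosome 12 (21.6) and chromosome 3 (21.4). Of all recruited peaks there, 13.2%, 16.7%, 26.2%, 15.6% and 10.5% lay near a start, in that order. The share of the whole list was 15.2%. Chromosome 19, dense in genes, had 8 (5.41 per 1000), out of only 17 recruited peaks on the whole chromosome (47.1%), the X chromosome 2 (2.4) and chromosome 18 none. Displaced peaks near starts were likewise frequent on chromosomes 3 (31.7 per 1000), 8 (31.4), 12 (31.0) and 5 (30.4). On chromosome 19 there were only 4 displaced peaks in all, with 0 near a start, and on chromosome 16 there were 20.5 members and 7.98 displaced peaks per 1000 starts. Copy number was not measured here, so its part in these counts was not tested. The densest 5 Mb held 7 members near AGO2, ARC, RHPN1, PLEC, DGAT1, CYHR1 and MFSD3 at the end of the long arm of chromosome 8. A further 6 lay at the tip of chromosome 16 (451894 to 3081464), near DECR2, BAIAP3, FAHD1, BRICD5, HCFC1R1 and CCDC64B.

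Few members coincided with the other chromatin proteins. HP1γ, a heterochromatin protein, had peaks at 18 members at 0 min (6.41%, 4.09% to 9.9%) and at 10 at 30 min (3.56%, 1.94% to 6.43%). LSD1, a histone demethylase, had peaks at 11 at 0 min (3.91%, 2.2% to 6.87%) and at 6 at 30 min (2.14%, 0.982% to 4.58%). The lists of 30 min were shorter for both proteins, so the lower counts there cannot be told apart from that. In all, 39 members (13.9%, 10.3% to 18.4%) met a peak of at least 1 list, against 11.4% (9.88% to 13.0%) of recruited peaks elsewhere and 11.3% (8.26% to 15.2%) of displaced peaks near starts. The remaining 242 met none.

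**Figure D4:**
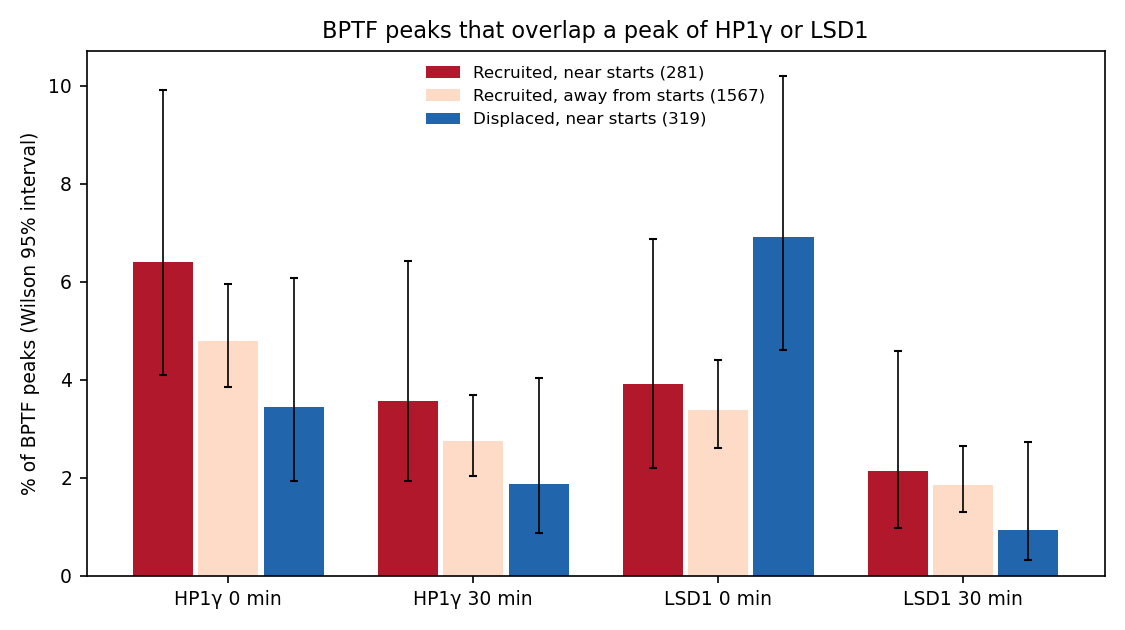
Share of BPTF peaks that overlap a peak of HP1γ or LSD1 at 0 or 30 min by at least 1 bp, with Wilson 95% intervals. Members have 6.41% with HP1γ and 3.91% with LSD1 at 0 min, displaced peaks near starts have 3.45% and 6.9%, and the intervals of members overlap those of both other classes for every list.

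The order of the proteins at 0 min was opposite in the BPTF classes, with HP1γ ahead at members (6.41% against 3.91%) and LSD1 ahead at displaced peaks near starts (6.9% against 3.45%), but the intervals overlapped. Within the members, a peak of any list was met by 28 of 152 with their centre beyond 1000 bp (18.4%, 13.1% to 25.3%) and by 11 of 129 nearer the start (8.53%, 4.83% to 14.6%). Of the 54 that covered a start, 0 met an LSD1 peak of 0 min, where the interval reaches 6.64%. In the other lists 3 met HP1γ at 0 min, 2 HP1γ at 30 min and 1 LSD1 at 30 min.

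The highest HP1γ scores at 0 min, as deposited by the authors, were at RAB3C, a vesicle GTPase (72.68), WWC1 of the Hippo pathway (62.97), DFNB31, the scaffold whirlin (62.82), RGS8, a regulator of G proteins (50.07), and DCAF6, a ubiquitin ligase adaptor (49.48). At 30 min they were at PPM1L, a phosphatase (60.61), GNB2L1, the ribosomal scaffold RACK1 (50.77), GSG2, the histone H3 kinase haspin (42.82), MRFAP1 (42.33) and HTR3E, a serotonin receptor subunit (39.09). For LSD1 at 0 min the highest score was at LRRC31 (104.14), the widest member, then EI24 (55.39), HIST1H3A (49.46), LRIG3 (41.62) and EYA2, a phosphatase and coactivator (40.5). At 30 min LRIG3 had 61.3, IGF1, the growth factor, 40.95, LRRC31 40.49, NR6A1 34.71 and SEC24A, of the secretory coat, 34.66. The scores of NR6A1 and SEC24A were below the median of that whole list, 36.1. Median scores at members were 38.2 and 38.8 for HP1γ at 0 and 30 min, against 35.6 and 37.3 over the whole lists. For LSD1 they were 38.7 and 37.6, against 36.3 and 36.1. Members in 2 or more lists numbered 5. They were at LRIG3 and LRRC31 (LSD1 at both times), RAB3C (HP1γ at both times), HIST1H3A (both proteins at 0 min) and ST6GALNAC1 (HP1γ at 0 min and LSD1 at both times).

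H2A is a core histone, and the deposited values are RPKM over the whole gene, so they do not read the member itself. Of the 325 genes 318 had a mean RPKM of at least 0.1 and were compared as log2 ratios of RPKM plus 0.05. At 30 against 0 min the median was -0.19, against -0.14 over all 19709 genes, and 233 of 318 (73.3%) read lower, against 71.3% of all. With the trend of the change with gene GC content taken off, these genes had a median of -0.01, with 181 of 318 (56.9%) below 0, against 9850 of all 19709 genes. Genes with a displaced peak near the start, which have a lower median GC content (41.1% against 46.3%), had a median of -0.02, or -0.01 with the trend taken off.

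**Figure D5:**
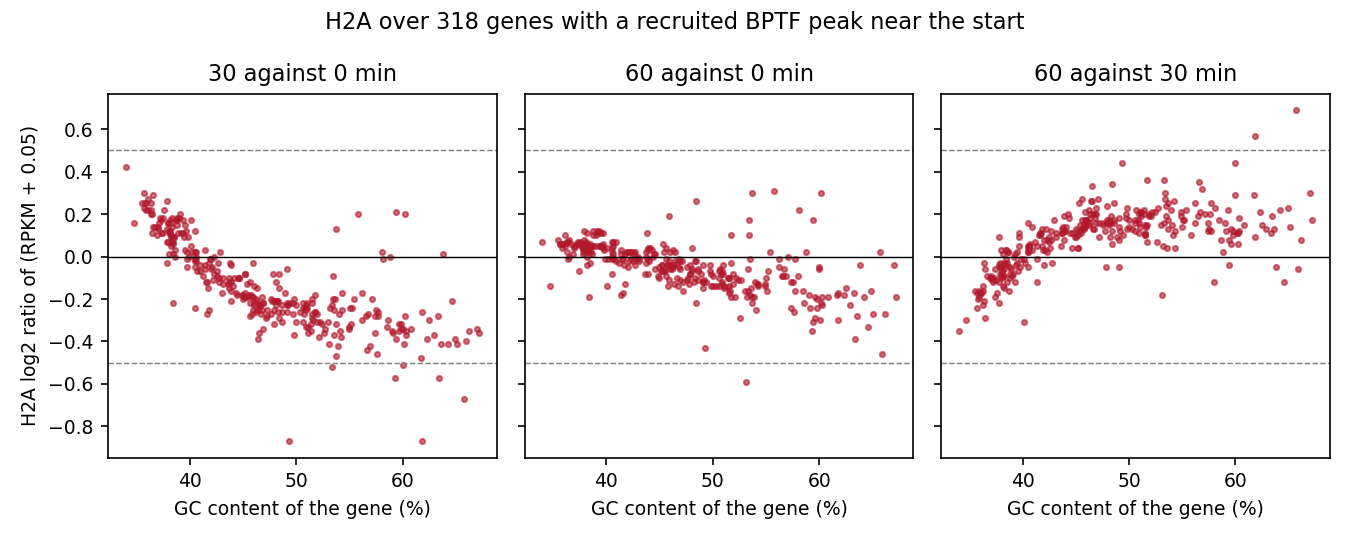
H2A log2 ratio of RPKM plus 0.05 against the GC content of the gene, for the 318 genes with a member, with a point per gene and dashed lines at 0.5 either way. At 30 against 0 min genes poor in GC lie above 0 and genes rich in GC below it (median -0.19), and the order is inverted from 30 to 60 min (median 0.11).

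Past 0.5 on the log2 scale, 7 genes read lower at 30 min (2.2%), against 1.99% of all genes, and 0 higher, against 0.345%. The 7 were the short genes HIST3H2A, HIST1H3A, BRICD5 and CHCHD5 and 3 genes without a symbol, all under 5 kb. They were named for passing this threshold. Reads were divided by the transcript number of the later annotation, which is 3 for HIST3H2A. On that count HIST3H2A rested on 9 reads at 0 min (-0.67, counting standard error 0.77). ENSG00000268396 rested on 10 (-0.51, 0.68) and ENSG00000268457 on 16 (-0.87, 0.58). For ENSG00000268396 the counting error exceeded the difference, and for BRICD5 (-0.57, 0.13) and CHCHD5 (-0.52, 0.13) it did not. For HIST3H2A this depends on the divisor, because undivided reads give a smaller error. The genes without a symbol and HIST1H3A had no transcript number in the later annotation, and 1 was assumed. With the GC trend taken off, 2 genes passed it in each direction. At 60 against 0 min the median was -0.04 (-0.03 over all genes), 62.9% read lower (61.2% of all), 1 gene was lower past 0.5 (0.314%, against 0.639%) and 0 higher (against 0.249%). From 30 to 60 min the median was 0.11 (0.09 over all genes), and 2 genes were higher past 0.5 (0.629%, against 0.756%) and 0 lower (against 0.294%). These comparisons share libraries with each other.

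Among the 234 tested genes of at least 10 kb, the largest positive difference at 30 min was at TWF1, the actin-binding twinfilin, with RPKM of 4.326 at 0 min, 5.819 at 30 min and 4.544 at 60 min, which is 0.42 on the log2 scale at 30 min (counting standard error 0.08). DCAF6 followed at 0.30 and TSC22D2 at 0.29. Next came SCFD1 (0.27), MPC2 of the mitochondrial pyruvate carrier (0.26), the DNA helicase BRIP1, FBXL17, HNF4G and DMTF1 (0.25 each) and NADK2, the mitochondrial NAD kinase (0.23). HNF4G had 1.511, 1.8 and 1.602 RPKM at 0, 30 and 60 min. All 10 had a GC content between 34.0% and 37.8%, and with the trend taken off they lay between -0.03 and 0.12.

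The largest negative differences were led by DECR2, a peroxisomal reductase of fatty acid breakdown, with 5.184, 3.875 and 4.856 RPKM at 0, 30 and 60 min, which is -0.42 on the log2 scale at 30 min (counting standard error 0.10). BAIAP3 had -0.41, and PLEC, the cytoskeletal linker plectin, had 11.481, 8.619 and 9.424 RPKM, also -0.41. CD22, TTYH3 and RHPN1 had -0.39, NAPA, of vesicle fusion, and QPRT, an enzyme of NAD synthesis from quinolinate, -0.38, ZSWIM4 -0.37 and the metalloprotease ADAM15 -0.36. Their GC content was 46.4% to 65.1%, and with the trend taken off they lay between -0.19 (CD22) and -0.05. QPRT then had -0.11, DECR2 -0.10, and BAIAP3 and PLEC -0.07 each.

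Among the genes of the progestin response, BCL2L1 had 6.079 RPKM at 0 min, 4.86 at 30 min and 5.749 at 60 min, a log2 change of -0.32 at 30 min and -0.08 at 60 min. NFKBIA had 5.877, 4.323 and 5.531 RPKM, a change of -0.44 at 30 min and -0.09 at 60 min. TIPARP, poor in GC (36.5%), had 4.908, 5.402 and 5.197 RPKM, a change of 0.14 and then 0.08. BCL2L1 and NFKBIA thus read lowest at 30 min, and TIPARP highest. With the GC trend taken off, the differences at 30 min were -0.10 for BCL2L1, -0.12 for NFKBIA and -0.09 for TIPARP, so that of TIPARP turned sign. With the peak on its own start, NR6A1 had 2.934, 2.889 and 2.986 RPKM, a change of -0.02 at 30 min. OGDH had 6.29, 5.458 and 6.044 (-0.20), and SP2 0.678, 0.584 and 0.655 (-0.20). For the 55 genes whose start was covered, the median at 30 min was -0.15, or 0.00 with the trend taken off, and 0 passed 0.5 either way. Each H2A value rests on 1 library, and the smallest RPKM steps put their depths at 140 M reads (0 min), 168 M (30 min) and 132 M (60 min).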

How the data were processed

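ChIP-seq was read in 9 libraries. Per the submitters' processing notes, Bowtie 1.0.0, HOMER 4.7.2 and build hg19 were used. The BPTF lists are positions without a value as deposited by the authors, and their caller and criterion are not given in the sources used here. They were read as BED, with starts printed counted from 1. HP1γ and LSD1 peaks carry a score deposited by the authors, with a definition not given here. H2A values are RPKM per gene on GENCODE version 18, per the file headers. In genes under 600 bp with 1 annotated transcript, low values came out as whole reads, within 0.05 of a read, for all 25 (0 min) and all 24 (30 min) and for 96.2% of 26 (60 min). Counting standard errors divide reads by transcript number. The depth of the other libraries is unknown.

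Overlap meant at least 1 bp. Gene GC, annotation and sequences came from GRCh37 with lifted GENCODE version 44 (96.5% of genes matched). The GC trend was the median of 50 GC bins. RPKM counted both strands, so overlapping genes share reads, and it grows with transcript number, so levels were not compared between genes. Python 3.11.15, scipy 1.17.1 and pysam 0.24.0 were used, and functions were tested on simulated data. Named were the 10 members nearest a start (1 is not reported here), genes of 23 lists, the 10 largest H2A changes each way at 10 kb or longer, the 5 highest HP1γ and LSD1 scores per list, the closest opposed pairs, the widest members and those genes with most members, and those past 0.5. Genes holding the steroid receptor element, the histone and HOX genes, OGDH and SP2 were picked out after their values were seen. Members, lists and rules were chosen with earlier results of these data known.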

Additional observations from a re-analysis of the deposited data

How the results depend on the processing

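Of 95 alternative values 49 kept within their interval or within 1.5 times the count. No paired analysis was possible because each group holds 1 library. Shortening the flank to 1 kb left 147 members, and using every annotated coding transcript as a start gave 549 and put 39.1% of the 281 within 500 bp (11.9% of displaced peaks). Requiring 50% of the BPTF peak to overlap gave 3.56% (HP1γ, 0 min), 1.42% (HP1γ, 30 min), 2.14% (LSD1, 0 min) and 0.356% (LSD1, 30 min), and a score of at least 50 gave 1.42%, 0.712%, 0.712% and 0.356%. For H2A at 30 against 0 min, the median was -0.14 with a pseudocount of 0.5, -0.044 centred on the median of all genes, -0.007 with the GC trend taken off and -0.12 with the 1 kb flank, and the genes lower past 0.5 numbered 1, 3, 2 and 3, or 2 at a mean RPKM of at least 1. Those higher numbered 1 centred and 2 with the trend off. At 60 against 0 min the median was -0.008 centred and -0.015 with the 1 kb flank, and turned to 0.002 with the trend off. Genes lower numbered 0 with the pseudocount of 0.5, at RPKM 1, with the trend off and with the 1 kb flank, and 2 unfiltered. From 30 to 60 min the median was 0.10 with the pseudocount of 0.5, 0.025 centred and 0.007 with the trend off, and genes higher numbered 0 with the pseudocount, at RPKM 1 and with the 1 kb flank, and 1 centred or with the trend off. Searching whole peaks raised the share with AGAACA to 28.8%, the GATA core to 22.8%, AP-1 to 14.6%, CCAAT to 51.6%, the GC box to 40.6%, TATAAA to 23.5%, the ETS letters to 6.41% and the E box to 11.0%, over longer sequence. The cause was not tested for the rest. The transcript-start, CpG threshold and multiple-start alternatives were chosen after seeing the data. With 1 library per group and no BPTF score, the calls themselves could not be varied.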

Other observations

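Some gene starts had both a recruited and a displaced BPTF peak. Of the 325 genes with a member, 9 (2.77%) also had a displaced peak within the flank, against 341 of all 20318 genes (1.68%), and no member overlapped a displaced peak. At DHX9, an RNA helicase, the member was centred 428 bp upstream of the start and the displaced peak 3412 bp upstream. At DMTF1, a cyclin D-binding factor, the member lay 406 bp downstream and the displaced peak 2840 bp downstream, and at SLC30A8, a zinc transporter of islet cells, 357 bp and 4578 bp downstream. LRIG3, which also met LSD1 at both times, TBX20, a cardiac transcription factor, and ENSG00000258740 had the displaced peak nearer the start. GRAMD1B, PPM1L and NADK2 had the member nearer.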
